A study of Mus musculus with 48 samples.

Results

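The Cyp2a cytochromes are the 4 genes of the mouse CYP2A subfamily that were chosen by symbol from the 15041 genes of the table, namely Cyp2a4, Cyp2a5, Cyp2a12 and Cyp2a22. All 4 were measured in every liver and all 4 passed the filter on low values. RNA of 48 whole livers was sequenced from poly(A) libraries, 1 library per liver, in 16 groups of 3. The 4 arms, of 12 livers each, were SHP knockout mice on ethanol, SHP knockout mice on control diet, wild-type C57BL/6 mice on ethanol and wild-type C57BL/6 mice on control diet. Ethanol mice received a Lieber-DeCarli liquid diet with 5% ethanol for 10 days and then a gavage of ethanol at 5 g/kg at 9 in the morning of day 11. Control mice received a maltose diet over the same days and a gavage of maltose dextrin at 9 g/kg, so a liquid diet and a gavage were common to all groups. Livers were taken at 6pm, 12am, 6am and 12pm after the gavage, with 3 mice of each genotype and diet at each time. As all mice had their gavage at the same hour, clock time and time since the gavage cannot be told apart. The labels used here do not give the sex or age of the mice, the allele of the knockout or the strain of the mice that carry it, and the replicate numbers (0, 1 and 2) only name the livers.

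CYP2A enzymes are haem proteins of the endoplasmic reticulum that hydroxylate steroids, coumarin, nicotine and other small molecules. CYP2A5, the mouse counterpart of human CYP2A6, is the coumarin hydroxylase and is known for being induced in injured mouse liver and for oxidising bilirubin. CYP2A4 is a testosterone hydroxylase that is higher in female than in male mouse liver, and CYP2A12 hydroxylates testosterone and bile acids. In mouse liver the nuclear receptor CAR (Nr1i3), the antioxidant factor NRF2 (Nfe2l2) and the clock output factor DBP are known to act on members of this subfamily. SHP, encoded by Nr0b2, is a nuclear receptor without a DNA-binding domain that represses other receptors.

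The 4 genes lie within 730.2 kb of chromosome 7 (GRCm38, GENCODE M21 annotation), in a cluster that also holds Cyp2b10, Cyp2b13, Cyp2b9, Cyp2g1 and Cyp2f2. Cyp2a4 (ENSMUSG00000074254) lies at chr7:26307169-26315088 on the plus strand and Cyp2a5 (ENSMUSG00000005547) at chr7:26835305-26843548 on the plus strand. Cyp2a22 (ENSMUSG00000091867) lies at chr7:26931631-26939384 on the minus strand, inside the span of the pseudogene Cyp2a21-ps on the opposite strand, and Cyp2a12 (ENSMUSG00000060407) at chr7:27029081-27037375 on the plus strand. The genes form 2 pairs. The main transcripts of Cyp2a4 and Cyp2a5 were 98.2% identical and those of Cyp2a12 and Cyp2a22 96.1% identical, while identity between the pairs was 70.9% to 73.5%. Of all stretches of 50 bases, the read length, in the Cyp2a4 transcript, 36.1% also occurred in Cyp2a5, and 31.0% of those of Cyp2a5 occurred in Cyp2a4. Cyp2a12 shared 27.5% of its stretches with Cyp2a22, and Cyp2a22 shared 25.7% with Cyp2a12. No stretch was shared between the pairs. With Cyp2a21-ps and other genes included, 38.8% of the Cyp2a4 stretches and 40.8% of the Cyp2a5 stretches occurred elsewhere. Values within a pair are therefore uncertain to the extent that the authors' counting assigned shared reads to either member. The libraries are unstranded, so reads from Cyp2a22 and Cyp2a21-ps cannot be told apart by strand. No stretch of 50 bases of the Cyp2a22 transcript occurred in a transcript of Cyp2a21-ps on either strand.

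The promoter windows are shown because Cyp2a4 and Cyp2a5, whose levels differ widely, start from nearly the same sequence. Each runs from 250 bases before the RefSeq transcription start to 50 bases after it (GRCm38.p6), 5′ to 3′ on the strand of the gene. Capitals mark 3 matches to motif letters. These are TTGCATAA, which resembles sites of bZIP factors, CAAAGTCC, the core of an HNF4 site, and the nuclear receptor half-site AGGTCA on the opposite strand, which reads TGACCT here.
Cyp2a4, chr7:26306942-26307241, plus strand: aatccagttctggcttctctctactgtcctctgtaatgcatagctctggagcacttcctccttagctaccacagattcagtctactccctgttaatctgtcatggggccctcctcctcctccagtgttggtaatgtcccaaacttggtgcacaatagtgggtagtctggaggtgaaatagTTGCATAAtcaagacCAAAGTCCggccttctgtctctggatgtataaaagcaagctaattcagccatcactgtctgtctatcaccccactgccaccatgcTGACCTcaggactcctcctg
Cyp2a5, chr7:26835089-26835388, plus strand: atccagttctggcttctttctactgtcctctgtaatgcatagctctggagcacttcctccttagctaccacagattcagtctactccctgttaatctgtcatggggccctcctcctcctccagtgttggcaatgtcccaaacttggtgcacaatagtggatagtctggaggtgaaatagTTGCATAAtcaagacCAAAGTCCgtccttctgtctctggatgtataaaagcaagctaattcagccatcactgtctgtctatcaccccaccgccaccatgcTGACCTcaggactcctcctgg
Cyp2a12, chr7:27028840-27029139, plus strand: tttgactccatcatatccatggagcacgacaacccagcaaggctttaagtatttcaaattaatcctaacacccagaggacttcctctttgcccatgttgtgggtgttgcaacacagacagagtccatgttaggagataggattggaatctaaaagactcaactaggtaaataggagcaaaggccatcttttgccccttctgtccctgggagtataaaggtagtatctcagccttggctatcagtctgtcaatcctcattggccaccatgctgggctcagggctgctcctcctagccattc
Cyp2a22, chr7:26939337-26939636, minus strand: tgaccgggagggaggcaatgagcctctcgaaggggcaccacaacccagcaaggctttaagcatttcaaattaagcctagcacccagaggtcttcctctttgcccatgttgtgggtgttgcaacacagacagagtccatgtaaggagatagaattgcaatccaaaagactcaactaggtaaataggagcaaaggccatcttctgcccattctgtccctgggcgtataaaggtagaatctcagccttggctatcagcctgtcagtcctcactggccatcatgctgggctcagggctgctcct

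The Cyp2a4 and Cyp2a5 windows were 98.3% identical, with 5 substitutions, and the Cyp2a12 and Cyp2a22 windows 89.6% identical. Windows of different pairs were 53.9% to 57.4% identical. TTGCATAA began at position -70 in Cyp2a4 and -71 in Cyp2a5, and CAAAGTCC at -55 and -56, counted from the first transcribed base as 0. Both were searched for after the windows had been seen, on both strands, and were found in 0.75% and 1.43% of 32544 mouse promoter windows of this length. The half-site AGGTCA began at position 30 in Cyp2a4 and 29 in Cyp2a5 and occurred in 16.25% of all windows. None of the 3 was found in the Cyp2a12 or Cyp2a22 window. On either strand of the 4 windows there was no match to TTANGTAA (sites of DBP, TEF and HLF, in 2.29% of all windows), to TGACNNNGC (NRF2, 12.41%), to CAAAGTCCA (HNF4, 0.48%), to CACGTG (E-box, 7.17%), to the DR4 repeat (AGGTCA again after any 4 bases, 0.02%) or to the NFI palindrome (TTGGC, any 5 bases, GCCAA, 0.04%). CAAAGTCC is contained in CAAAGTCCA, and AGGTCA in the DR4 repeat. These matches describe letters in a window and nothing about binding.

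Levels are given as FPKM, the authors' read counts scaled to gene length and library size. Whole reads per gene could be recovered from the FPKM, and the livers held 9605636 to 19780144 reads in genes, of which 2.86% to 7.0% were mitochondrial. The hepatocyte markers Alb, Ttr, Apoa1, Apoa2, Serpina1c, Tat, Cps1 and Cyp2e1 summed to between 56900 and 88700 FPKM across the arms. Nr0b2, the gene named in the knockout label, was read in all livers. It averaged 11.7 ± 6.14 FPKM in ethanol and 21.8 ± 9.53 FPKM in control livers labelled knockout, against 12.4 ± 9.07 FPKM in ethanol and 22.1 ± 9.6 FPKM in control wild-type livers (SD, n = 12 each). The difference between genotype labels was -0.17 ± 0.26 on the log2 scale in controls (SE, limma, adjusted p = 0.637). Which part of the gene these reads cover is not known, so genotype is given here as the label has it. Saa1, an acute phase protein, exceeded 8000 FPKM in 4 livers, which were the knockout-labelled ethanol livers 6pm replicate 1 and 12pm replicate 1 and the wild-type control livers 6pm replicates 0 and 2. In whole tissue, fewer cells of a type and less RNA per cell cannot be told apart.

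All 4 members were higher in ethanol than in control livers of both genotype labels. Under the knockout label the ratio of mean FPKM, ethanol over control, was 5.88 for Cyp2a22, 7.34 for Cyp2a4, 7.37 for Cyp2a5 and 1.38 for Cyp2a12. In wild type the ratios of the same genes were 72.5, 33.9, 13.0 and 2.21. Single control livers moved 3 of these ratios by over 1.5 times. Under the knockout label the Cyp2a4 ratio was 30.2 without control 6pm replicate 0 and the Cyp2a22 ratio 9.02 without control 6am replicate 0. In wild type the Cyp2a4 ratio was 63.1 without control 6pm replicate 1. Among all 13765 genes tested with limma, 17.6% rose and 14.3% fell with ethanol under the knockout label, 31.9% in all, and 17% rose and 13.4% fell in wild type, 30.4% in all (adjusted p under 0.05). The 4 genes differed widely in level, and Cyp2a12 and Cyp2a5 made up nearly all of the summed FPKM.

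**Figure D1:**
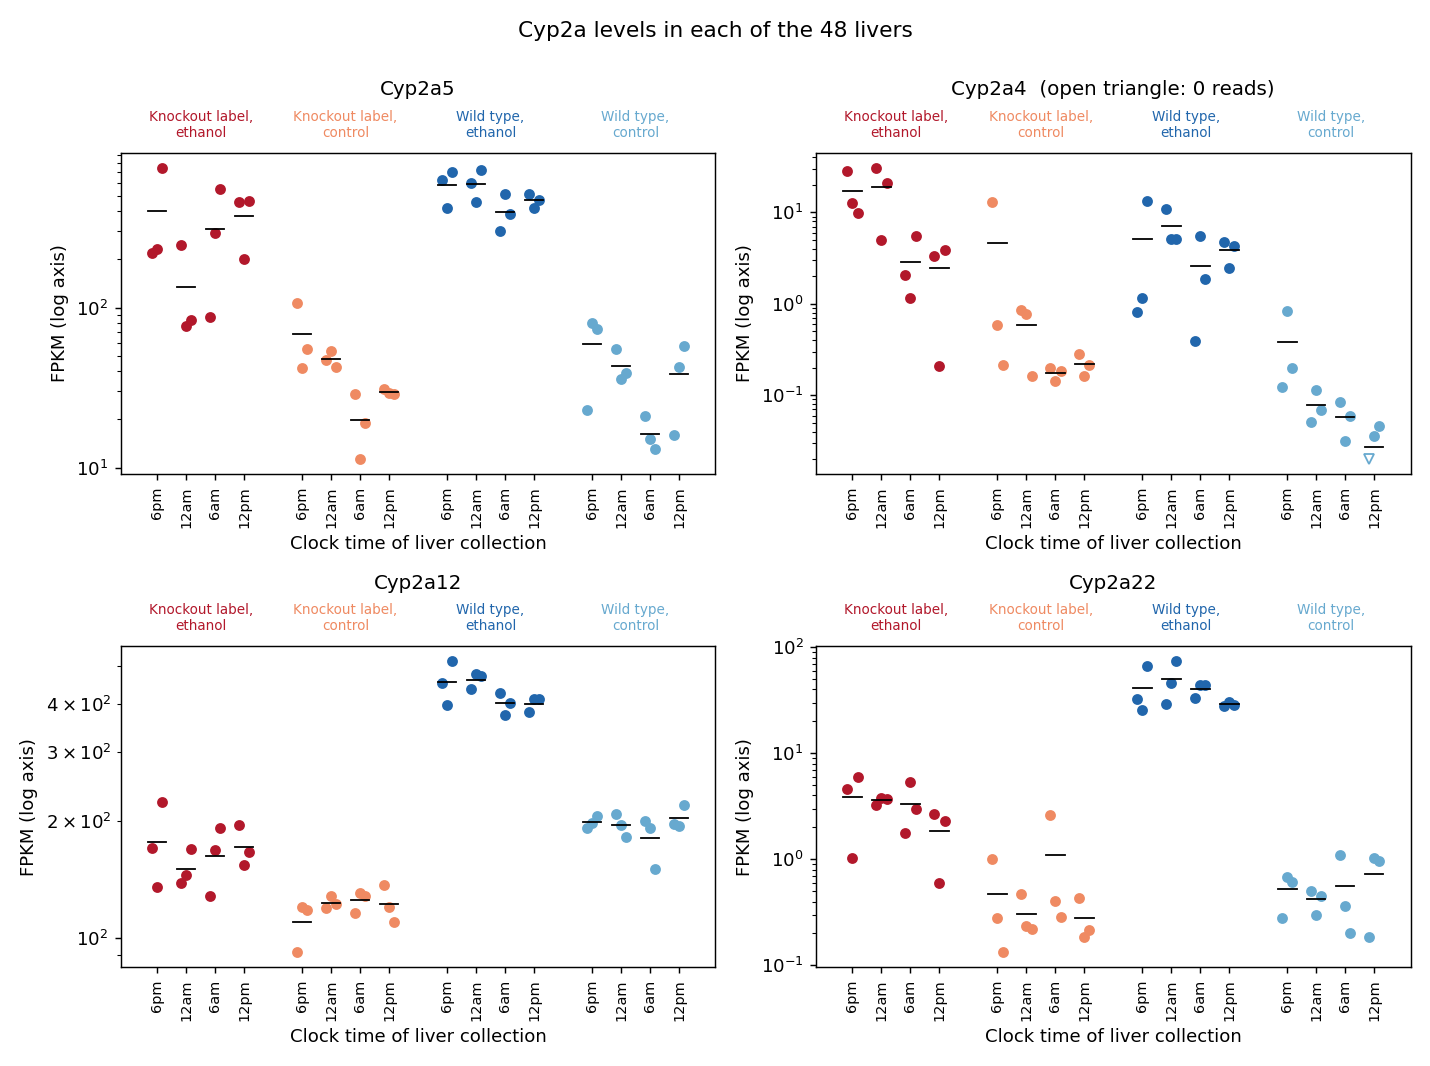
FPKM (log axis) of the 4 Cyp2a genes in each of the 48 livers, by arm and clock time; points are livers, bars are means of 3 livers, and the open triangle marks the liver with 0 reads of Cyp2a4. Cyp2a22 lies between 0.604 and 5.94 FPKM in knockout-labelled ethanol livers, against 25.7 to 74.4 FPKM in wild-type ethanol livers.

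Cyp2a5 had the highest mean of the 4 members in both ethanol arms, though not the highest level in every liver. The ratio of Cyp2a5 to Cyp2a12 FPKM ranged from 0.492 to 3.34 in knockout-labelled and from 0.703 to 1.53 in wild-type ethanol livers. At 6pm, 12am, 6am and 12pm, with replicates 0, 1 and 2 in turn, knockout-labelled ethanol livers had 219, 233 and 746, then 244, 76.4 and 83.2, then 87.2, 291 and 551, then 455, 202 and 462 FPKM. Knockout-labelled control livers had 107, 41.7 and 55.2, then 47.1, 53.3 and 42.4, then 29, 11.3 and 18.9, then 31, 29.1 and 28.8 FPKM. At each of the 4 times the ethanol livers all lay above the controls, but the ranges over the day overlapped, since 3 ethanol livers lay below the highest control. Wild-type ethanol livers had 630, 419 and 697, then 597, 453 and 724, then 299, 511 and 382, then 512, 420 and 472 FPKM. Wild-type control livers had 22.9, 79.9 and 73.7, then 55.4, 35.6 and 39, then 20.9, 15 and 13.1, then 16.1, 42.7 and 57.3 FPKM. All 12 wild-type ethanol livers lay above all 12 wild-type controls, with 299 FPKM in the lowest ethanol liver and 79.9 FPKM in the highest control. The share of all genes that separate as fully was not counted, here or for the members below. The arm means were 304 ± 208 and 41.3 ± 24.7 FPKM in knockout-labelled ethanol and control livers, and 510 ± 130 and 39.3 ± 23.1 FPKM in wild-type ethanol and control livers (SD, n = 12 each).

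On the scale of log2(FPKM × scale factor + 0.5), as for every log2 value here, the mean ethanol effect on Cyp2a5 over the 4 times was 2.99 ± 0.27 under the knockout label (SE, limma with Benjamini-Hochberg adjustment over all genes, adjusted p = 1.35e-09). In wild type it was 3.90 ± 0.27 (adjusted p = 4.14e-13). The difference between these effects, -0.91 ± 0.38, did not pass the test (adjusted p = 0.137), and it passed only where values were scaled by library totals alone (-1.15, adjusted p = 0.0226). Between genotype labels within one treatment, Cyp2a5 was lower under the knockout label in ethanol livers (-0.94 ± 0.27, adjusted p = 0.00926), a comparison in which 14.8% of genes were called lower and 28% called in all. In control livers the difference was -0.03 ± 0.27 (adjusted p = 0.947), where 16.4% of genes were called lower and 32.2% in all.

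Cyp2a22, a member whose substrates are little known, differed most between the genotype labels in ethanol livers and did not pass the test in control livers. Knockout-labelled ethanol livers had 4.62, 1.03 and 5.94, then 3.24, 3.81 and 3.72, then 1.77, 5.34 and 2.96, then 2.7, 0.604 and 2.3 FPKM at 6pm, 12am, 6am and 12pm. Knockout-labelled control livers had 0.997, 0.279 and 0.133, then 0.467, 0.236 and 0.222, then 2.6, 0.407 and 0.286, then 0.433, 0.186 and 0.218 FPKM. The 2 lowest ethanol livers, 0.604 and 1.03 FPKM, were the high-Saa1 livers of that arm, and 8 of 12 ethanol livers lay above all controls. The 12am ethanol livers, with 2200, 5250 and 2200 FPKM of Saa1, had 3.24, 3.81 and 3.72 FPKM of Cyp2a22. With 2690 FPKM of Saa1, ethanol 6am replicate 0 had 1.77 FPKM. The ethanol liver with the least Saa1 (15.2 FPKM), 12pm replicate 2, had 2.3 FPKM. Whether Saa1 and Cyp2a22 go together was not tested. Wild-type ethanol livers had 32.2, 25.7 and 66, then 28.9, 46.1 and 74.4, then 33.5, 44.5 and 44.2, then 27.9, 30.5 and 28.8 FPKM. Wild-type control livers had 0.282, 0.677 and 0.612, then 0.505, 0.297 and 0.454, then 1.1, 0.362 and 0.204, then 0.184, 1.02 and 0.968 FPKM. Every wild-type ethanol liver lay above every wild-type control and above every knockout-labelled liver of either treatment. How many of all genes separate in this way was not counted.

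The arm means of Cyp2a22 were 3.17 ± 1.63 and 0.539 ± 0.689 FPKM in knockout-labelled ethanol and control livers, and 40.2 ± 15.8 and 0.555 ± 0.323 FPKM in wild-type ethanol and control livers (SD, n = 12 each). The ethanol effect was 1.98 ± 0.23 under the knockout label (limma, adjusted p = 8.24e-08) and 5.26 ± 0.23 in wild type (adjusted p = 1.9e-18). The added 0.5 FPKM holds these values down too, and limma-voom on the recovered reads gave 3.08 and 6.33. The difference between the effects was -3.28 ± 0.33 (adjusted p = 1.21e-07). In that comparison 4.19% of genes were called lower, 3.78% higher and 7.98% in either direction. Between ethanol livers, the level was lower under the knockout label (-3.47 ± 0.23, adjusted p = 7.33e-14). Between control livers the difference of -0.19 ± 0.23 did not pass the test (adjusted p = 0.555). Reads were few in controls, with 184 reads over 12 knockout-labelled controls and 221 over 12 wild-type controls, against 1445 and 15919 in the ethanol arms. Cyp2a22 was not a fixed share of its near-identical partner: it stood at 0.392% to 3.18% of Cyp2a12 FPKM in knockout-labelled ethanol livers and 0.113% to 2.24% in their controls, against 6.46% to 15.8% in wild-type ethanol livers and 0.0939% to 0.55% in theirs.

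Cyp2a12 was the most even member and the main Cyp2a transcript of control livers. Knockout-labelled ethanol livers had 170, 135 and 223, then 138, 145 and 169, then 128, 168 and 191, then 195, 154 and 166 FPKM at 6pm, 12am, 6am and 12pm. Knockout-labelled control livers had 91.7, 120 and 118, then 119, 128 and 122, then 116, 130 and 128, then 137, 120 and 110 FPKM. At 6pm, 12am and 12pm these groups did not overlap, and 10 of 12 ethanol livers lay above all controls of the day. Wild-type ethanol livers had 452, 398 and 516, then 437, 477 and 472, then 426, 374 and 403, then 380, 411 and 411 FPKM. Wild-type control livers had 191, 197 and 206, then 208, 195 and 182, then 200, 191 and 150, then 196, 194 and 219 FPKM. All 12 wild-type ethanol livers lay above all wild-type controls, and in each treatment all 12 knockout-labelled livers lay below all 12 wild-type livers.

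Cyp2a12 averaged 165 ± 27.9 and 120 ± 11.5 FPKM in knockout-labelled ethanol and control livers, and 430 ± 42.6 and 194 ± 16.9 FPKM in wild-type ethanol and control livers (SD, n = 12 each). The ethanol effect was 0.71 ± 0.08 under the knockout label (limma, adjusted p = 8.37e-08) and 1.16 ± 0.08 in wild type (adjusted p = 1.15e-12), and their difference was -0.45 ± 0.12 (adjusted p = 0.0151). Cyp2a12 was lower under the knockout label in ethanol livers (-1.28 ± 0.08, adjusted p = 3.85e-14) and in control livers (-0.83 ± 0.08, adjusted p = 2.36e-09), and of the 4 members it was the one called in both. In control livers 5 of 8 hepatocyte markers were also lower under the knockout label (median -0.36), against 16.4% of all genes. In ethanol livers 1 of 8 was lower (median -0.02), against 14.8% of all genes. The part of these markers in the Cyp2a12 difference was not tested.

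**Figure D2:**
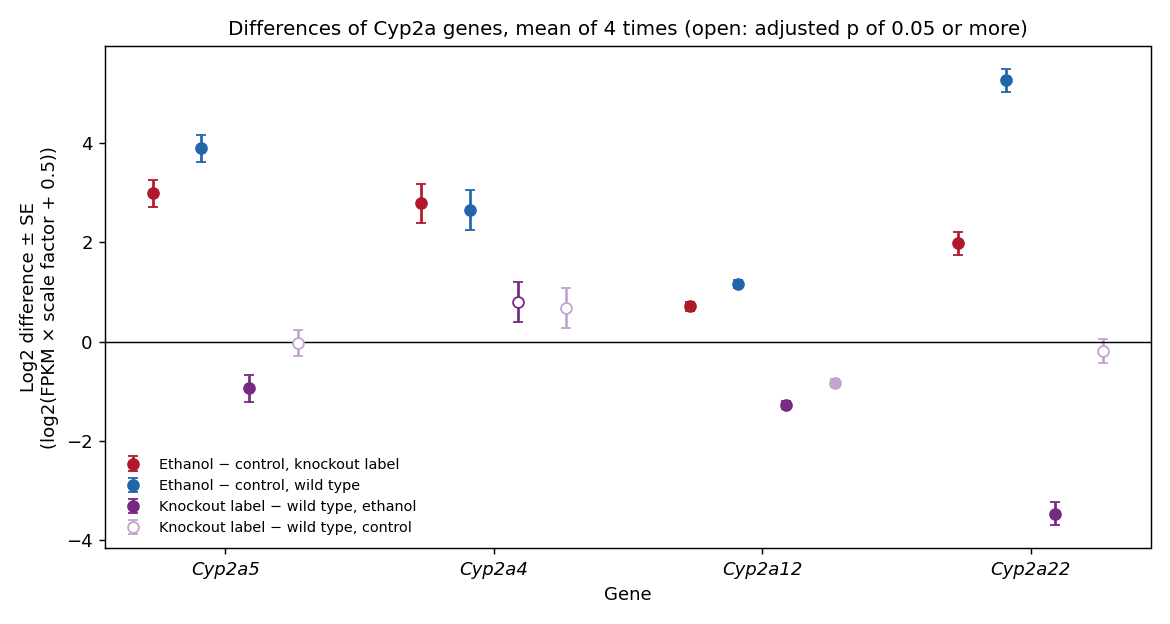
Log2 differences with SE (limma, mean over the 4 times) for the 4 Cyp2a genes; filled points have an adjusted p under 0.05. Ethanol minus control is above 0 for all 4 genes under both genotype labels, and knockout label minus wild type is -3.47 for Cyp2a22 and -1.28 for Cyp2a12 in ethanol livers.

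Cyp2a4 was scarce in control livers and had the highest coefficient of variation of the 4 members in every arm (85.4% to 263% over 12 livers). Knockout-labelled ethanol livers had 28.6, 12.6 and 9.81, then 30.8, 5.01 and 21.1, then 2.06, 1.15 and 5.5, then 3.32, 0.211 and 3.86 FPKM at 6pm, 12am, 6am and 12pm. Knockout-labelled control livers had 13.1, 0.589 and 0.216, then 0.848, 0.766 and 0.164, then 0.201, 0.144 and 0.185, then 0.281, 0.161 and 0.212 FPKM. A single control liver, 6pm replicate 0, held 335 of the 419 reads of that arm, and the lowest ethanol liver, 12pm replicate 1, was the one with 23950 FPKM of Saa1. The other high-Saa1 liver among knockout-labelled ethanol livers, 6pm replicate 1, had 12.6 FPKM of Cyp2a4, above the arm mean of 10.3 FPKM. Wild-type ethanol livers had 0.82, 1.15 and 13.4, then 10.8, 5.14 and 5.16, then 0.396, 5.56 and 1.86, then 4.8, 2.46 and 4.26 FPKM. Wild-type control livers had 0.122, 0.834 and 0.198, then 0.0504, 0.115 and 0.0693, then 0.0835, 0.0313 and 0.0588, then 0, 0.0358 and 0.0465 FPKM. In wild-type controls 10 of 12 livers had 3 reads or fewer, and in the liver with 0 reads a floor of 3 reads would be 0.12 FPKM. Summed over livers there were 3664 and 419 reads in knockout-labelled ethanol and control livers, against 1430 and 41 in wild-type ethanol and control livers.

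Cyp2a4 averaged 10.3 ± 10.7 and 1.41 ± 3.7 FPKM in knockout-labelled ethanol and control livers, and 4.65 ± 3.97 and 0.137 ± 0.226 FPKM in wild-type ethanol and control livers (SD, n = 12 each). Without the knockout-labelled control 6pm replicate 0, the control mean was 0.342 ± 0.261 FPKM (SD, n = 11) and the ethanol mean was 30.2 times higher. The ethanol effect was 2.78 ± 0.40 under the knockout label (limma, adjusted p = 2.52e-06) and 2.65 ± 0.40 in wild type (adjusted p = 4.21e-06), values that the added 0.5 FPKM holds down. Their difference, 0.13 ± 0.57, did not pass the test (adjusted p = 0.923), and its sign turned with a pseudocount of 0.1 FPKM (-0.47). The knockout label minus wild type was 0.80 ± 0.40 in ethanol livers (adjusted p = 0.129) and 0.68 ± 0.40 in control livers (adjusted p = 0.196). The control difference passed with a pseudocount of 0.1 FPKM (1.32, adjusted p = 0.0387), and the ethanol difference passed without the wild-type ethanol 6pm replicate 2 (1.07, adjusted p = 0.0344). The ratio of Cyp2a5 to Cyp2a4 FPKM ranged from 3.95 to 961 among knockout-labelled ethanol livers, so Cyp2a4 did not follow its near-identical partner in a fixed proportion.

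The sum of the 4 members was 483 ± 231 and 163 ± 20.8 FPKM in knockout-labelled ethanol and control livers, and 984 ± 171 and 234 ± 35.6 FPKM in wild-type ethanol and control livers (SD, n = 12 each). Cyp2a12 made up 39.6% and 74.8% of the sum in knockout-labelled ethanol and control livers, and 44.3% and 83.8% in wild-type ethanol and control livers. Cyp2a5 made up 57.1% and 24.1% in knockout-labelled ethanol and control livers, and 51.2% and 15.9% in wild-type ethanol and control livers. Cyp2a22 reached 4.04% of the sum in wild-type ethanol livers and stayed under 1% in the means of the other arms, while Cyp2a4 reached 2.61% in knockout-labelled ethanol livers.

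**Figure D3:**
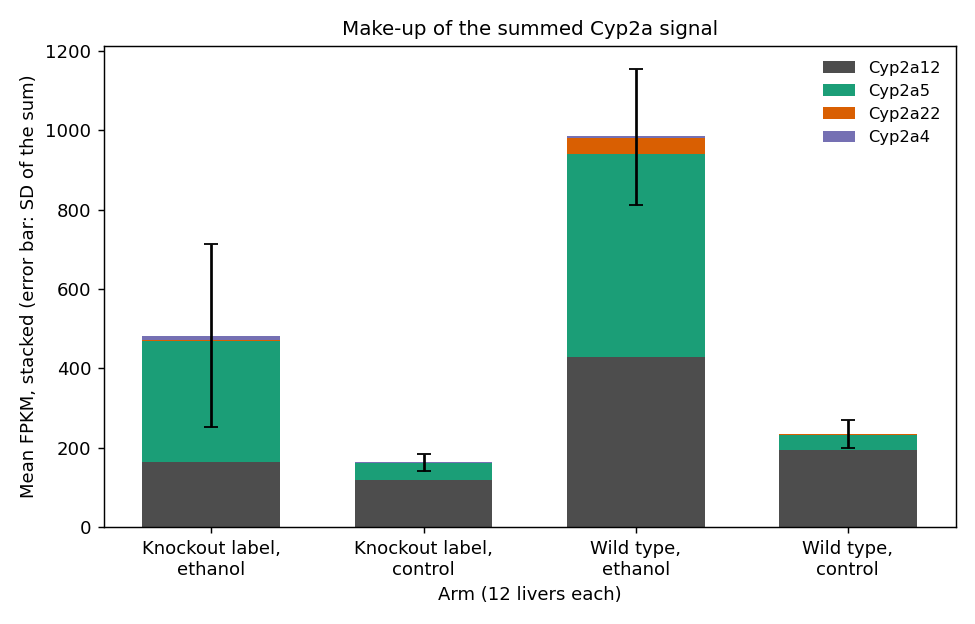
Mean FPKM of each Cyp2a gene stacked by arm (12 livers each), with the SD of the sum as error bar. The sum is 483 and 163 FPKM in knockout-labelled ethanol and control livers and 984 and 234 FPKM in wild-type ethanol and control livers; most of the ethanol excess is the Cyp2a5 segment.

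At single times the ethanol effect on Cyp2a5 under the knockout label was 2.69 at 6pm, 1.27 at 12am, 3.96 at 6am and 4.03 at 12pm, and the 12am value did not pass (limma, adjusted p = 0.133). The share of all genes called higher at these times was 3.52%, 4.15%, 4.76% and 13.2%. Cyp2a12 rose by 0.94 at 6pm, 0.65 at 6am and 0.98 at 12pm, and gave 0.27 at 12am (adjusted p = 0.323). Cyp2a22 rose at all 4 times, by 1.64 to 2.30, and Cyp2a4 rose at 6pm (3.14, adjusted p = 0.0134) and 12am (3.85, adjusted p = 0.00343) and gave 2.26 at 6am (adjusted p = 0.0743) and 1.88 at 12pm (adjusted p = 0.0873). Several of these calls hung on single livers. Cyp2a12 at 6am was lost without ethanol replicate 2 (adjusted p = 0.179). Cyp2a22 at 6am was lost without ethanol replicate 1 or 2 or control replicate 1 or 2 (0.105 to 0.145), and at 12pm without ethanol replicate 0 (0.0604). Cyp2a4 at 6pm was lost without ethanol replicate 0 or control replicate 1 or 2 (0.0506 to 0.107), while at 12pm it passed without ethanol replicate 1, the high-Saa1 liver (0.0317). With a pseudocount of 0.1 FPKM Cyp2a4 passed at 6am (0.028) and at 12pm (0.0435). The Cyp2a22 call at 6am was lost with limma-voom (0.0529) and the Cyp2a12 call at 6am with library totals alone (0.0844). With the spread taken from the 6pm groups alone, the 4 members had an adjusted p of 0.248 to 0.382 at that time. In the same kind of fit the calls were lost at 12am for Cyp2a4 (0.092) and at 6am for Cyp2a5 (0.0724), Cyp2a12 (0.17) and Cyp2a22 (0.192).

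In wild type the ethanol effect on Cyp2a5 at single times was 3.36 at 6pm, 3.67 at 12am, 4.67 at 6am and 3.89 at 12pm, and every one passed the test (limma, highest adjusted p 4.35e-05). The share of genes called higher at these times was 10%, 5.14%, 7.62% and 4.55%. Cyp2a12 and Cyp2a22 also rose at all 4 times in wild type, by 1.09 to 1.28 and by 4.76 to 5.63. Cyp2a4 rose at 12am (3.60, adjusted p = 0.00363) and 12pm (3.03, adjusted p = 0.017), and gave 1.87 at 6pm (adjusted p = 0.102) and 2.12 at 6am (adjusted p = 0.0791). The 12pm call was lost, with an adjusted p of 0.0569 to 0.0718, without ethanol replicate 0 or 2 or control replicate 0 or 1 of that time, and 6am passed without ethanol replicate 0 (adjusted p = 0.033) or with a pseudocount of 0.1 FPKM (0.0152). With limma-voom on the recovered reads the Cyp2a4 calls at 12am and 12pm were lost (adjusted p = 0.151 and 0.248). No time dependence of the ethanol effect was found in wild type for any member (joint test of the 4 times, adjusted p = 0.587 to 0.939), where 10.6% of genes were called.

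Across the day, Cyp2a5 was lowest at 6am in control livers of both labels, at 19.7 ± 8.89 FPKM under the knockout label and 16.3 ± 4.04 FPKM in wild type, and highest at 6pm, at 68.1 ± 34.6 and 58.8 ± 31.3 FPKM (SD, n = 3 each). Levels at 12am and 12pm lay between these, at 47.6 ± 5.5 and 29.6 ± 1.22 FPKM under the knockout label and 43.3 ± 10.6 and 38.7 ± 20.9 FPKM in wild type. In wild-type controls the 12am livers all lay above the 6am livers, while the other neighbouring times overlapped. The joint test over the 4 times gave an adjusted p of 0.0482 in knockout-labelled controls (limma, 12.8% of genes called) and 0.0822 in wild-type controls (8.35% called). Both lie close to the threshold. The first call was lost (0.0536 to 0.165) without any one of 10 of the 12 livers, all but 6pm replicate 1 and 6am replicate 0, and the second was gained without 6pm replicate 0 (0.0381). Dbp, the clock output factor known to drive rhythmic Cyp2a transcription in mouse liver, had its lowest control level at 6am, at 0.859 ± 0.354 FPKM under the knockout label and 1.01 ± 0.266 FPKM in wild type. Knockout-labelled controls had 24.2 ± 8.42, 3.34 ± 1.06 and 29.4 ± 6.3 FPKM of Dbp at 6pm, 12am and 12pm, and wild-type controls 30.3 ± 14.5, 3.11 ± 0.702 and 15.3 ± 3.59 FPKM. Mean Dbp was thus highest at 12pm in knockout-labelled controls and at 6pm in wild-type controls, and its 12pm and 6pm livers overlapped under both labels. Mean Cyp2a5 was highest at 6pm under both labels. The part of Dbp in the Cyp2a5 levels was not tested.

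In ethanol livers each member was tested over time by itself, and the time patterns of different members were not compared in a test. Under the knockout label the joint test called Cyp2a4 (limma, adjusted p = 0.00578), Cyp2a5 (0.0135) and Cyp2a12 (0.025), where 38% of all genes were called. Cyp2a4 averaged 17 ± 10.2, 18.9 ± 13.0, 2.91 ± 2.3 and 2.46 ± 1.97 FPKM at 6pm, 12am, 6am and 12pm, while Cyp2a5 averaged 399 ± 300, 134 ± 94.6, 310 ± 233 and 373 ± 148 FPKM (SD, n = 3 each). Cyp2a5 was lowest at 12am, and the Cyp2a4 means at 6pm and 12am differed by less than their spread. With the spread taken from that arm alone the 3 calls were lost (adjusted p = 0.094, 0.233 and 0.308). The Cyp2a5 call was also lost without ethanol 12am replicate 1 (0.0908) or 2 (0.0771), and the Cyp2a12 call without ethanol 12am replicate 0 (0.132) or 1 (0.0717) or 12pm replicate 0 (0.0501). In wild-type ethanol livers no member was called over time (adjusted p = 0.436 to 0.833), where 20% of genes were called. The ethanol effect on Cyp2a5 depended on time under the knockout label (adjusted p = 0.0315, with 10.8% of genes called). That call had an adjusted p of 0.0512 to 0.0871 without any one of 9 livers, which were control 12am replicates 0, 1 and 2, control 6am replicate 1, control 12pm replicates 1 and 2, ethanol 12am replicates 1 and 2 and ethanol 12pm replicate 0. The same test gave 0.0969 for Cyp2a12, which passed without control 6pm replicate 2 (0.0485).

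The genes whose level across the 48 livers was most like each member included several other genes of drug metabolism. All these Pearson correlations are over 48 livers that share genotype, diet and time groups, and are descriptions. Cyp2a22 was most like Cyp2b10 (r = 0.889), the classical CAR target of mouse liver, then Abcc4 (0.881), an organic anion exporter, and Arpp19 (0.878). Cyp2b10 averaged 33.8 ± 36.6 and 1.25 ± 1.87 FPKM in knockout-labelled ethanol and control livers, and 267 ± 259 and 1.41 ± 1.16 FPKM in wild-type ethanol and control livers (SD, n = 12 each), so both genes had their ethanol level lower under the knockout label. Cyp2a4 was most like its neighbour Cyp2b9 (0.887), a female-predominant cytochrome, then Fth1 (0.804), the ferritin heavy chain. Cyp2a5 was most like Blvrb (0.916), a biliverdin reductase, Cyb5 (0.91), the cytochrome b partner of P450 enzymes, and Ugt1a9 (0.902), a glucuronosyltransferase. Cyp2a12 was most like Cyp2c29 (0.918), Cyp2c54 (0.846) and Pgrmc1 (0.843), a haem-binding partner of P450 enzymes. Among the members, Cyp2a12 and Cyp2a22 had r = 0.86, Cyp2a5 and Cyp2a22 0.83, Cyp2a5 and Cyp2a12 0.73, Cyp2a4 and Cyp2a5 0.7, Cyp2a4 and Cyp2a22 0.56 and Cyp2a4 and Cyp2a12 0.3. Over the 48 livers Cyp2a12 and Cyp2a22 were thus closest to each other and Cyp2a4 to Cyp2a5, while Cyp2a5 was closer to Cyp2a22 than to Cyp2a4. Within single arms of 12 livers the values differed. Cyp2a4 and Cyp2a5 had r = -0.03 and 0.68 in knockout-labelled ethanol and control livers, and 0.65 and 0.57 in wild-type ethanol and control livers. In the same order, Cyp2a5 and Cyp2a12 had r = 0.8, -0.08, 0.62 and 0.74. Cyp2a5 and Cyp2a22 had 0.22, 0.08, 0.42 and 0.56, and Cyp2a12 and Cyp2a22 had 0.28, -0.28, 0.44 and 0.37. The value of 0.86 for Cyp2a12 and Cyp2a22 was thus not reached within any arm.

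**Figure D4:**
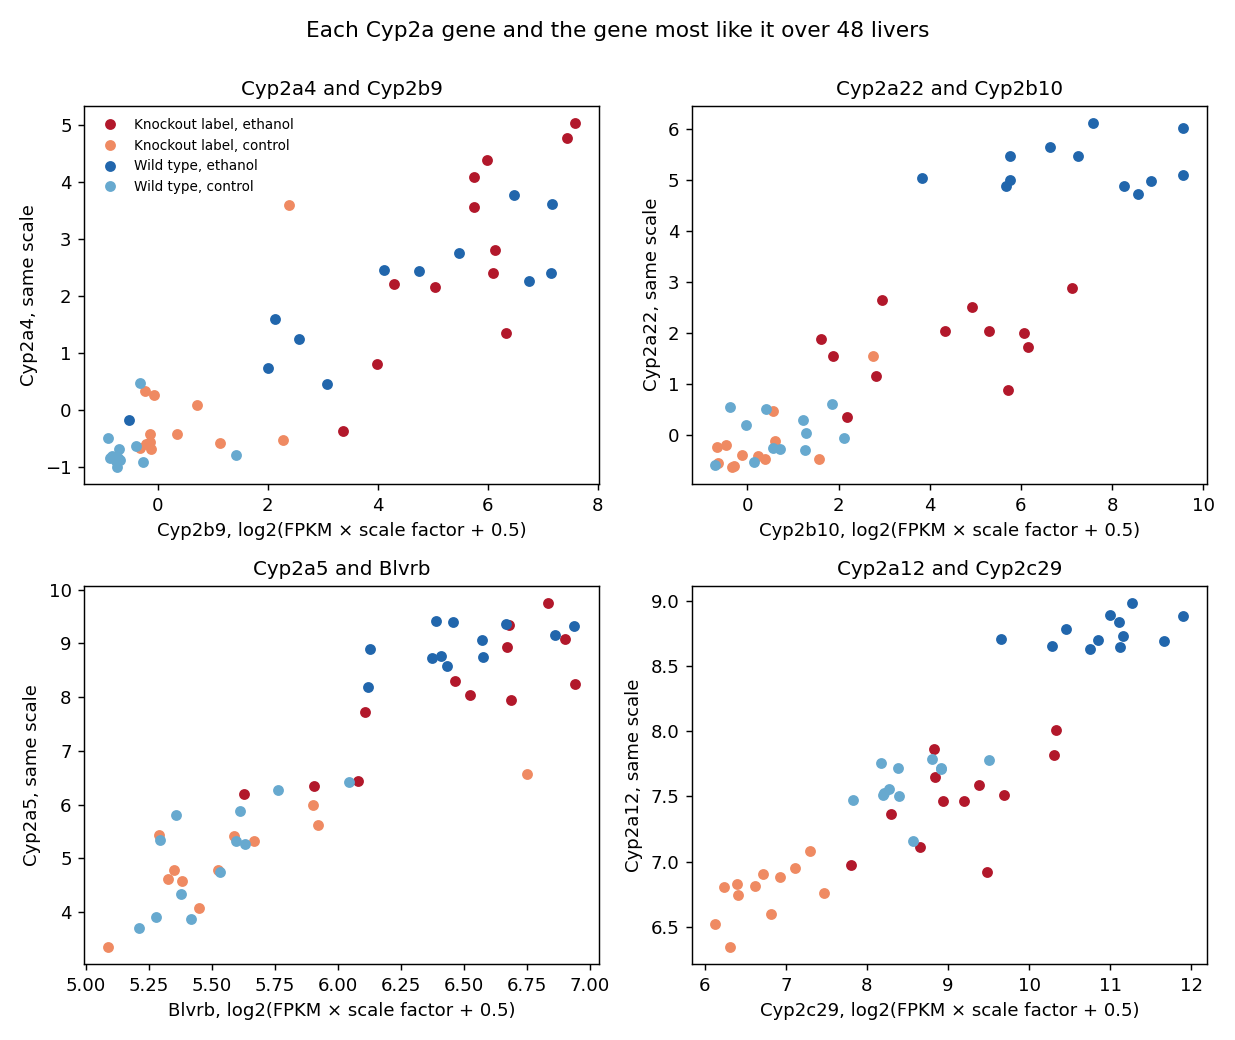
Each Cyp2a gene against the gene most like it, as log2(FPKM × scale factor + 0.5), in 48 livers coloured by arm. Wild-type ethanol livers lie at the upper right for Cyp2a22 and Cyp2a12, the control arms overlap for Cyp2a5 and Cyp2a22, and the ethanol arms overlap for Cyp2a4 and Cyp2a5 (r = 0.887 for Cyp2a4, 0.889 for Cyp2a22, 0.916 for Cyp2a5 and 0.918 for Cyp2a12).

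Of 21 known targets of CAR and PXR tested, 12 rose and 2 fell with ethanol under the knockout label (median log2 0.77). In wild type 20 rose (median 1.36). The median over all genes was 0.01 in both comparisons. For this list and those below, 17.6% of all genes rose and 14.3% fell under the knockout label. In wild type 17% of all genes rose and 13.4% fell. The targets with the smallest adjusted p under the knockout label were Cyp2c37 (2.41 ± 0.23), Cyp2c29 (2.44 ± 0.24) and Cyp2b10 (3.95 ± 0.39). In wild type they were Cyp2b10 (6.56 ± 0.39, adjusted p = 1.48e-14), Abcc4 (2.95 ± 0.23) and Gstm3 (3.41 ± 0.27), a glutathione transferase. The ethanol effect was smaller under the knockout label for 7 of the 21 and larger for none (median of the difference -0.52), against 4.19% of all genes called lower and 3.78% higher. Examples were Gstm3 (-3.12 ± 0.38, limma, adjusted p = 3.69e-06), Cyp2c55 (-2.38 ± 0.37) and Cyp3a11 (-1.53 ± 0.26). Cyp2b10 in the same cluster differed by -2.61 ± 0.56 (adjusted p = 0.00321). Gstm3 and Cyp3a11 were higher under the knockout label in control livers (2.49 ± 0.27 and 1.60 ± 0.19). In ethanol livers their differences did not pass (-0.63 ± 0.27 and 0.07 ± 0.19, adjusted p = 0.078 and 0.795). Cyp2c55 and Cyp2b10 were lower under the knockout label in ethanol livers (-2.02 ± 0.26 and -3.02 ± 0.39). In control livers these 2 did not pass (0.36 ± 0.26 and -0.41 ± 0.39, adjusted p = 0.296 and 0.445). Without the high-Saa1 livers 16 of the 21 rose with ethanol in wild type, and with library totals alone as the scale 12 rose and 5 fell under the knockout label.

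Of 19 NRF2 and glutathione genes tested, 8 rose and 3 fell under the knockout label (5 and 4 with library totals alone) and 14 rose and 2 fell in wild type, where Nqo1 (2.11 ± 0.17), a quinone reductase, Gstm3 and Gstm1 (2.17 ± 0.18) led. The effect was smaller under the knockout label for 11 and larger for none (median of the difference -0.97, limma). Over all genes 4.19% were called lower and 3.78% higher in that difference. In control livers, 11 of these 19 were higher under the knockout label and 2 lower, against 15.8% and 16.4% of all genes. In ethanol livers 1 was higher and 6 were lower, against 13.2% and 14.8% of all genes.

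Of 18 factors that are known or candidate regulators of Cyp2a genes, 6 rose and 4 fell with ethanol under the knockout label and 3 rose and 3 fell in wild type (6 fell without the high-Saa1 livers), medians of 0 and -0.04. Over all genes 17.6% rose and 14.3% fell under the knockout label and 17% rose and 13.4% fell in wild type, so the wild-type counts are near the share of all genes. Nr1i3, which encodes CAR, rose by 1.11 ± 0.12 under the knockout label (limma, adjusted p = 1.34e-08) and by 0.78 ± 0.12 in wild type (adjusted p = 2.75e-06). Its difference between labels, 0.33 ± 0.16, did not pass (adjusted p = 0.219). Nfe2l2, which encodes NRF2, fell by 0.60 ± 0.08 and by 0.38 ± 0.08 in knockout-labelled and wild-type livers, and its inhibitor Keap1 rose by 0.25 ± 0.05 and 0.30 ± 0.05. Hnf4a rose by 0.39 ± 0.09 under the knockout label (adjusted p = 0.000776) and gave 0.20 ± 0.09 in wild type (adjusted p = 0.0756). The aryl hydrocarbon receptor Ahr gave 0.24 ± 0.10 under the knockout label (adjusted p = 0.0809) and rose by 0.42 ± 0.10 in wild type (adjusted p = 0.00217). Nr0b2 itself fell with ethanol by 0.66 ± 0.26 under the knockout label (adjusted p = 0.0456) and by 0.94 ± 0.26 in wild type (adjusted p = 0.00502). Among control livers Nr1i3 was lower under the knockout label (log2 difference -0.49 ± 0.12, adjusted p = 0.00142). With library totals alone as the scale, the median of all genes moved by -0.20 in the knockout-label ethanol effect, and 1 of the 18 rose and 7 fell there.

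Mean Dbp did not pass the test for ethanol under either label (-0.03 ± 0.22 and 0.05 ± 0.22, limma, adjusted p = 0.945 and 0.896 in knockout-labelled and wild-type livers), but its effect depended on time (adjusted p = 0.00608 and 7.33e-06). In wild type it fell by 2.43 ± 0.43 at 6pm (adjusted p = 0.000169) and rose by 2.24 ± 0.43 at 6am (adjusted p = 0.000621). Of 16 clock and PAR bZIP genes tested, 4 rose and 2 fell under the knockout label, against 0 and 6 with library totals alone, and 3 fell in wild type. Over all genes 17.6% rose and 14.3% fell under the knockout label and 13.4% fell in wild type. The counts of this list are thus near the share of all genes.

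Of 16 rows tested for female-predominant liver genes, among which Cux2 has 2, 12 rose and 1 fell with ethanol under the knockout label (median 1.28) and 12 rose in wild type (median 0.76). Cyp2b9 led both, by 5.18 ± 0.55 under the knockout label (limma, adjusted p = 1.92e-08) and 4.75 ± 0.55 in wild type (adjusted p = 3.31e-08), and Cyp2a4 belongs to the genes with this sex difference in mice. Of 19 male-predominant genes, 1 rose and 10 fell under the knockout label (median -1.09) and 16 fell in wild type (median -2.14). They included Mup20, a urinary pheromone carrier, which fell by 3.05 ± 0.30 and 3.26 ± 0.30 in knockout-labelled and wild-type livers. Between genotype labels, 5 of the 19 were lower and 2 higher under the knockout label in ethanol livers, where 14.8% of all genes were lower. In control livers 13 were lower, where 16.4% of all genes were. Of 16 steroid and bile acid hydroxylases and related enzymes, 7 rose and 3 fell under the knockout label (4 and 4 with library totals alone) and 7 rose and 5 fell in wild type (6 and 6). Hsd3b5, a steroid dehydrogenase of male liver, fell by 5.61 ± 0.57 in wild type (adjusted p = 2.18e-09). Under the knockout label 2 of the 16 were higher and 2 lower in ethanol livers (2 and 5 with library totals alone), and 2 were higher and 9 lower in control livers (2 and 6). Over all genes 13.2% were higher and 14.8% lower in ethanol livers, and 15.8% and 16.4% in control livers.

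Of 14 other genes of the Cyp2 cluster and its surroundings, 5 rose and 2 fell with ethanol under the knockout label (3 and 4 with library totals alone) and 7 rose and 2 fell in wild type, medians of 0.21 and 0.16 beside 0.01 over all genes. Cyp2b10 and Cyp2b9 had the smallest adjusted p of the list under both labels, while Ltbp4, a matrix protein gene nearby, fell by 0.75 ± 0.13 and 0.61 ± 0.13 in knockout-labelled and wild-type livers. Of 15 genes for ethanol oxidation and haem handling, 5 rose and 1 fell under the knockout label (2 and 7 with library totals alone) and 4 rose and 5 fell in wild type. Blvrb rose by 0.85 ± 0.10 (limma, adjusted p = 1.42e-07) and 0.98 ± 0.10 (adjusted p = 5.08e-09) in knockout-labelled and wild-type livers. Cyp2e1, the ethanol-oxidising cytochrome, rose by 0.70 ± 0.13 under the knockout label (adjusted p = 8.82e-05). Its effect exceeded that in wild type by 0.83 ± 0.18 (adjusted p = 0.00454), opposite in sign to the differences of Cyp2a12 and Cyp2a22. Mean Cyp2e1 was 2500 FPKM in ethanol livers of both labels. In control livers it was 1740 ± 617 FPKM under the knockout label and 2710 ± 549 FPKM in wild type (SD). Between ethanol livers the label difference of Cyp2e1 was -0.002 ± 0.13 (limma, adjusted p = 0.992).

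Markers of other cell types moved with some groups. The summed FPKM of 5 Kupffer cell markers ranged from 60.8 to 452 and from 171 to 633 in knockout-labelled ethanol and control livers, and from 36.2 to 344 and from 72.7 to 234 in wild-type ethanol and control livers. All 5 were higher under the knockout label in ethanol livers (3 without the high-Saa1 livers), and 4 in control livers. Over all genes 13.2% were higher in ethanol livers and 15.8% in control livers. The 3 neutrophil markers measured summed to 1.98 to 186 FPKM and 2.29 to 45.3 FPKM in knockout-labelled ethanol and control livers, against 0.838 to 5.81 FPKM and 0.844 to 13.5 FPKM in wild-type ethanol and control livers. The 3 were higher under the knockout label in ethanol livers (median 1.84), where 13.2% of all genes were. No marker of either list was at 0 in a whole arm, and their part in the Cyp2a differences was not tested. Of the 8 hepatocyte markers, 5 rose with ethanol under the knockout label (median 0.34, with 2 risen and 1 fallen under library totals alone), and the median was 0.01 in wild type. Without the 4 high-Saa1 livers the difference between the ethanol effects was -2.96 for Cyp2a22 (limma, adjusted p = 8.88e-07) and -0.43 for Cyp2a12 (adjusted p = 0.0367).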

How the data were processed

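FPKM of 15041 genes in 48 livers were used as deposited by the authors. Novoalign and GRCm38 are named in the submitters' processing notes, and how reads shared by several genes were counted is not stated there. Per the labels' protocols, libraries were made with a TruSeq poly(A) kit, which does not mark strand, and read as single reads of 50 bases. Groups follow the sample titles and the time label. In 24 libraries the label for treatment differed from the title, and that label does not separate ethanol from control within a time. The 48 pairs of livers within groups differed by more than sampling noise (chi-square per degree of freedom 9.8 to 272.5). Nothing else in the labels describes the replicates, so p-values rest on the spread between these livers.

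FPKM were multiplied by TMM scale factors (0.8 to 1.3, trimming 30% of fold changes and 5% of levels) and taken as log2 of the value plus 0.5. A gene was tested if 3 or more libraries reached 0.5 FPKM (13765 tested, 1276 removed). limma 3.58.1 in R 4.3.3 fitted 16 group means over all 48 libraries with an intensity trend, with Benjamini-Hochberg adjustment across every gene tested and a threshold of 0.05. Time of day and time dependence were joint tests over 4 times, which are also times since the gavage. The fit was tested on simulated data. Whole reads came out for 100.0% of genes (relative tolerance 1e-11), and limma-voom on those reads called 4358 genes for ethanol under the knockout label and 4135 in wild type, against 4385 and 4188 from FPKM. Each SD describes the spread between the livers it is given for. Each SE comes from the spread within all 16 groups pooled, with the intensity trend, and not from the compared groups alone.

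Besides the 4 members, Nr0b2 and the regulators, up to 3 genes of each list with the smallest adjusted p in an ethanol contrast are named, and 3 genes most like each member, of which 1 is not reported here. The members and lists were chosen with earlier results of these data known. Saa1 was singled out after its values were seen. Promoter windows are RefSeq's (GRCm38.p6), and gene positions are from GENCODE M21. Alternatives were other pseudocounts, filters, scalings and fits, a replicate block, and each library left out.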

Additional observations from a re-analysis of the deposited data

Results flagged for a closer look

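The ethanol effect differed between genotype labels for Cyp2a22, by -3.28 on the log2 scale, and for Cyp2a12, by -0.45, both knockout label minus wild type and both past the threshold in the test of the difference itself (limma, adjusted p = 1.21e-07 and 0.0151). Leaving out each of the 48 livers in turn gave -3.38 to -3.13 for Cyp2a22 and -0.50 to -0.39 for Cyp2a12, and every one of these values passed.

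The ethanol effect on Cyp2a5 differed between clock times under the knockout label (limma, joint test, adjusted p = 0.0315). The adjusted p was 0.0512 to 0.0871 without any one of 9 livers, which were control 12am replicates 0, 1 and 2, control 6am replicate 1, control 12pm replicates 1 and 2, ethanol 12am replicates 1 and 2 and ethanol 12pm replicate 0. The same test in wild type gave 0.587. Whether the time dependence differs between the labels was not tested.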

How the results depend on the processing

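Of 684 values of the 4 members under alternatives other than leaving out a library, 651 kept their direction and side of the threshold, as did 1098 of 1152 with 1 library left out. The mean ethanol effects kept both under every alternative run. The cause of the changes below was not tested.

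With a pseudocount of 0.1 FPKM the Cyp2a4 difference between ethanol effects was -0.47, with library totals -0.017 and with voom -1.18, all uncalled. The Cyp2a4 control difference between labels passed at 0.1 FPKM (1.32). The Cyp2a5 time test in knockout-labelled controls gave 0.0513 with a pseudocount of 1 FPKM, 0.0523 without a filter, 0.0769 with library totals and 0.0501 with median-of-ratios factors, and in wild-type controls 0.0347 with voom. Library totals gave -1.15 for the Cyp2a5 difference of effects (passed), 0.11 for its control difference between labels (reversed, uncalled), 0.551 for the Cyp2a12 time test in knockout-labelled ethanol livers and 0.056 for the Cyp2a5 time dependence under that label. With only the compared groups in the fit that dependence gave 0.144, and the time tests in knockout-labelled ethanol livers gave 0.094 (Cyp2a4), 0.233 (Cyp2a5) and 0.308 (Cyp2a12).

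Library totals moved the median of all genes by -0.20 in the knockout-label ethanol effect (542 genes higher, 6759 lower), by -0.20 in the difference of effects (193 and 3635) and by 0.11 between labels in controls (4135 and 812); between labels in ethanol livers 914 were higher and 3615 lower, and for ethanol in wild type 1906 and 1786. Counts of genes called with totals were 7301 for ethanol under the knockout label, 3828 for the difference, 2184 at 6pm, 1896 at 6am and 6468 at 12pm under that label and 2343 for its time dependence, against 4385, 1098, 998, 1141, 3107 and 1485. With only the compared groups they were 0, 21, 48 and 1942 at 6pm, 12am, 6am and 12pm under the knockout label, against 998, 1271, 1141 and 3107. The 0 is from limma, with 1471 genes at an unadjusted p under 0.05, and voom called 865. In wild type they were 1441, 2648 and 1035 at 6pm, 12am and 6am, against 2515, 1299 and 1661. They were 1116 and 225 for time of day in knockout-labelled control and ethanol livers, and 193 and 2567 for time dependence under the knockout label and in wild type, against 1758, 5233, 1485 and 1456. Without the high-Saa1 livers, an alternative chosen after seeing the data, as was voom, they were 2040 at 12pm under the knockout label, 1166 at 6pm in wild type, 516 for time of day in wild-type controls and 874 for time dependence in wild type.

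With each library left out, the Cyp2a4 difference of effects ranged from -0.062 to 0.44, the Cyp2a4 difference between labels in ethanol livers from 0.62 to 1.07 and the Cyp2a5 control difference between labels from -0.17 to 0.07. Adjusted p of the Cyp2a5 time tests ranged from 0.00272 to 0.0908 and 0.0367 to 0.165 in knockout-labelled ethanol and control livers and 0.0381 to 0.24 in wild-type controls, of the Cyp2a12 time test in knockout-labelled ethanol livers from 0.00889 to 0.132, and of time dependence under the knockout label from 0.00483 to 0.0871 for Cyp2a5 and 0.0485 to 0.214 for Cyp2a12. Counts of genes called ranged from 393 to 1194, 447 to 2107, 318 to 1259 and 1668 to 3396 at 6pm, 12am, 6am and 12pm under the knockout label, and from 1487 to 2223, 592 to 833, 827 to 1633 and 422 to 731 in wild type. For time of day they ranged from 830 to 1842 in knockout-labelled controls, 1652 to 2849 in wild-type ethanol and 717 to 1070 in wild-type control livers, and for time dependence under the knockout label from 669 to 1888.

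The replicate numbers did not pair the livers: deviations from group means had r of -0.57 to 0.46 (median 0) over 360 same-numbered pairs and -0.6 to 0.64 over 720 others. With the replicate number as a block the count for ethanol was 4345 under the knockout label and 4149 in wild type, and no call of a member changed. The planned edgeR quasi-likelihood test was not run, and limma-voom on the recovered reads took its place. Depth limits Cyp2a4 in wild-type controls most, where 10 of 12 livers had 3 reads or fewer.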
